A study of Homo sapiens with 10 samples.

Results

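The CXC chemokine genes examined here are CXCL1, CXCL2, CXCL3, CXCL5, CXCL6 and CXCL8. They were found as the rows of the deposited count table whose Ensembl identifiers carry these symbols, which gave 6 of 61587 genes. All 6 passed the limit of 200 counts over the 10 samples, and 19006 genes passed it in all. The cells were RPTEC/TERT1, a human proximal tubular epithelial cell line immortalised with telomerase, so every sample carries the telomerase transgene. The sample labels give the line a different final number in each sample, and all were taken to be this line, which is the only one the study's methods name. Control cells (n = 5) were mock irradiated, and irradiated cells (n = 5) received 10 Gy of gamma irradiation, with RNA taken at day 7 from both. Replicates are numbered 1 to 5 in each group and were treated as pairs by number. It is not stated whether they were separate cultures, so p-values measure the spread between these samples, which may be technical. A cell line has no leukocytes to attract, and the data are mRNA levels only.

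These chemokines are small secreted proteins that draw neutrophils out of the blood towards injured or infected tissue. All 6 carry the glutamate-leucine-arginine motif before their CXC cysteines, which is the feature that lets them bind CXCR2, and CXCL6 and CXCL8 also engage CXCR1. CXCL8 is interleukin-8. CXCL1, CXCL2 and CXCL3 are the closely related GRO chemokines, and CXCL5 and CXCL6 form another close pair. In epithelium their genes are classically switched on by NF-κB downstream of TNF, interleukin-1 and Toll-like receptors. Their messages hold AU-rich elements that mark them for rapid decay.

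All 6 genes lie within 359 kb of chromosome 4 (GRCh38), and each has 4 exons in its reference (MANE Select) transcript. CXCL8 (ENSG00000169429) spans chr4:73740519-73743716, CXCL6 (ENSG00000124875) chr4:73836640-73849064 and CXCL1 (ENSG00000163739) chr4:73869393-73871308, all on the plus strand. CXCL5 (ENSG00000163735) spans chr4:73995642-73998677, CXCL3 (ENSG00000163734) chr4:74036589-74038807 and CXCL2 (ENSG00000081041) chr4:74097040-74099196, all on the minus strand. The 100 bases before each RefSeq transcription start (GRCh38.p14) are shown because all 6 hold the run GGAATTTCC, given in capitals, which is the longest that the 6 windows share and resembles the binding sequence of NF-κB. The CXCL8 window is chr4:73740469-73740568, that of CXCL6 chr4:73836578-73836677, that of CXCL1 chr4:73869293-73869392, that of CXCL5 chr4:73998678-73998777, that of CXCL3 chr4:74038690-74038789 and that of CXCL2 chr4:74099196-74099295. The RefSeq starts differ from the ends of some gene spans above, which are from GENCODE. The CXCL3 window lies wholly within its gene span, and those of CXCL8, CXCL6 and CXCL2 lie in part within theirs. Each is written 5′ to 3′ on the strand of its gene.
CXCL8: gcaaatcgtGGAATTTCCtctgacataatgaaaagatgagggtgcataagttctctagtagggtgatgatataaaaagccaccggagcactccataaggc
CXCL6: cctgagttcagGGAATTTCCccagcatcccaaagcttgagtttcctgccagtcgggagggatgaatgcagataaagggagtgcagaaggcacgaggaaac
CXCL1: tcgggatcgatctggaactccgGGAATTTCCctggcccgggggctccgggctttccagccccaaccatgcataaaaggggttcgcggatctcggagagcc
CXCL2: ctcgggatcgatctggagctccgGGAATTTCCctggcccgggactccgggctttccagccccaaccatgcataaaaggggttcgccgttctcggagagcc
CXCL3: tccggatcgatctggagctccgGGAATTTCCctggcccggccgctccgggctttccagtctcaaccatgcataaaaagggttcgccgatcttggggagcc
CXCL5: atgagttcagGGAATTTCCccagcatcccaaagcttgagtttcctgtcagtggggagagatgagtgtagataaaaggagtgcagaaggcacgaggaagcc

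The run begins 77 to 91 bases before the RefSeq start in the 6 genes. GGAATTTCC was searched on both strands of the 250 bases upstream after it had been seen in these windows, and 0.413% of 35116 RefSeq promoters hold it. The longer run GGGAATTTCCC, which contains it, was present in all members except CXCL8 and in 0.0769% of promoters. A TGANTCA match, the motif of AP-1, was found on either strand in CXCL8 only, as TGACTCA 137 bases before the start and so outside the window shown. That motif was present in 6.57% of promoters. A match describes the letters only. The CXCL1 and CXCL2 windows were identical at 94.1% of aligned positions, those of CXCL5 and CXCL6 at 90.1%, and CXCL8 shared at most 50% with any other member. The coding sequences fell into the same sets, with identity of 93.5% for CXCL1 and CXCL2, 94.4% for CXCL2 and CXCL3, 90.7% for CXCL1 and CXCL3 and 87.4% for CXCL5 and CXCL6.

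Such likeness can divide reads among copies. The longest exact match of a member elsewhere in the genome was 92 bases, between CXCL2 and CXCL3, against reads of 150 bases. Exact copies of at least 50 bases covered 25.7% of the CXCL2 transcript, 16.6% of CXCL1, 8.56% of CXCL3 and 3.16% of CXCL5, and none of CXCL6 or CXCL8. Copies as long as a read covered 0% of every member. STAR does not count a read that matches several places, and reads trimmed shorter or read with errors were not examined here. For CXCL5, 17.3% of exon bases lie under exons of ENSG00000287037, an unnamed gene on the other strand, and reads shared by overlapping genes were not counted where strand was ignored. For CXCL6, 4.61% of exon bases overlap another gene on the same strand.

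Depth ranged from 78081911 to 131555873 counts in control samples and from 66269311 to 101594948 in irradiated samples. Irradiated replicate 2 was the shallowest library, and the counts of control replicate 3 differed from those of control replicates 2, 4 and 5 by a chi-square of at least 168 per gene, against at most 102 for any other pair of control samples. Replicates 4 and 5 resembled each other most, their chi-square being 13.1 per gene for the control samples and 7.68 for the irradiated samples, against at least 47.9 and 35.4 for other pairs of the same group. They still differed beyond sampling noise and were counted as separate samples, but whether they are as independent as the others is not known, which bears on every test of 5 against 5. Levels are given as CPM, the TMM-normalised counts scaled to a common library size,, and changes as the log2 fold change of irradiated over control from edgeR's quasi-likelihood test with the replicate number as a block, adjusted by Benjamini-Hochberg over all 19006 genes.

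All 6 chemokine messages were higher in irradiated cells, by 3.14-fold to 30.3-fold, and in each the lowest irradiated sample lay above the highest control sample. All 6 were called changed at the adjusted p of 0.05, where 46.6% of all genes tested were, with 23.9% called higher and 22.7% lower. A rise of more than 2-fold, as all 6 members had, was called for 5.26% of genes. In 14.6% of genes every irradiated sample lay above every control sample, as in all 6 members, and in 26.7% the groups lay apart in either direction. In bulk samples such a rise cannot be divided into more expressing cells and more mRNA per cell. The median log2 fold change was 3.06 over the members and -0.01 over all genes tested.

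**Figure D1:**
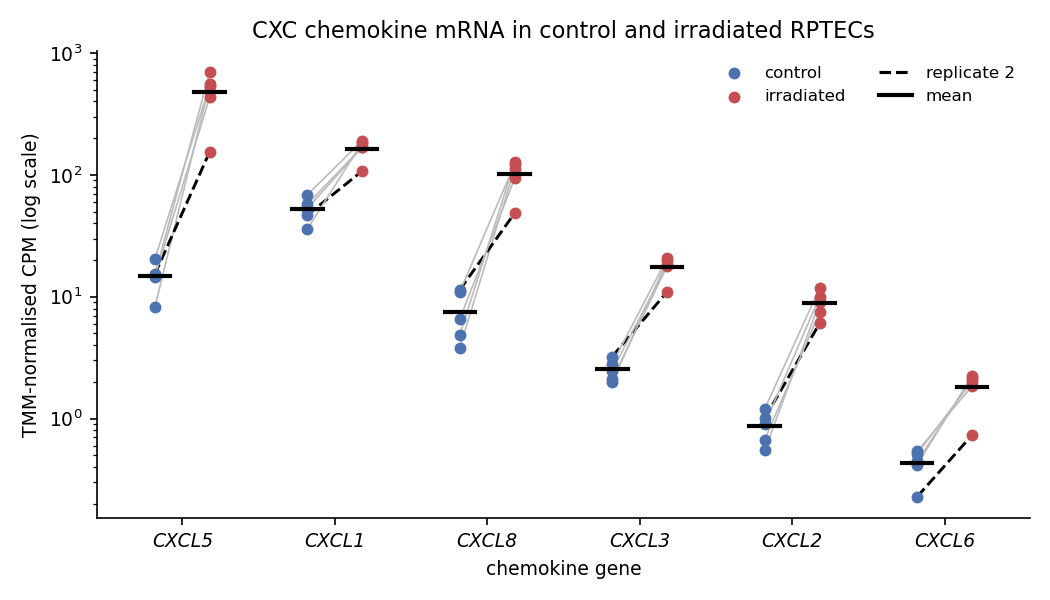
Normalised CPM on a log axis for each chemokine gene, with 1 point per sample, grey lines joining samples of the same replicate number, a dashed line for replicate 2 and a bar at the mean of 5 samples. The red irradiated points lie above the blue control points for every gene, and irradiated replicate 2 is the lowest red point for each.

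CXCL8, the neutrophil attractant after which the group is best known, stood at 3.83, 11.4, 4.85, 11 and 6.55 CPM in control replicates 1 to 5. In irradiated replicates 1 to 5 it stood at 112.6, 48.5, 127.2, 122.5 and 93.5 CPM. Control samples thus varied widely, replicates 1 and 3 being low and 2 and 4 high, while the irradiated samples other than replicate 2 lay close together. The mean went from 7.54 ± 3.51 to 100.8 ± 32 CPM (SD, n = 5), a log2 fold change of 3.78 (SE 0.40, 95% interval 2.84 to 4.72) with an edgeR adjusted p of 0.000271.

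CXCL1, the most abundant member in control cells, measured 52.9, 46.8, 35.9, 68.6 and 57.3 CPM in control replicates 1 to 5. The irradiated replicates measured 168.6, 107.5, 184.2, 190.8 and 169.1 CPM. Control replicate 3 was the lowest and irradiated replicate 2 fell well under the other 4 irradiated samples, yet the groups did not overlap. CXCL1 had the smallest rise of the 6, with a log2 fold change of 1.65 (SE 0.15, 95% interval 1.31 to 1.99, edgeR adjusted p = 0.000125), or 3.14-fold.

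CXCL2, its neighbour in sequence, was scarce in control cells at 0.55, 1.01, 1.2, 0.901 and 0.672 CPM in replicates 1 to 5, which rest on 45 to 141 counts. After irradiation it measured 8.97, 6.05, 11.8, 10 and 7.46 CPM. Replicate 3 was the highest sample of both groups, and the lowest irradiated sample was several times the highest control sample. The log2 fold change was 3.35 (SE 0.19, 95% interval 2.91 to 3.79, edgeR adjusted p = 2.69e-05), or 10.2-fold.

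CXCL3 gave 2.1, 3.23, 2.01, 2.82 and 2.48 CPM in control replicates 1 to 5 and 17.8, 11, 19.6, 20.7 and 18.2 CPM in irradiated replicates 1 to 5. Replicate 2 was the highest of the control samples and the lowest of the irradiated samples. The log2 fold change was 2.77 (SE 0.21, 95% interval 2.29 to 3.26, edgeR adjusted p = 6.41e-05), or 6.84-fold.

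CXCL5, known also as an epithelial product, had the largest rise. Control replicates 1 to 5 held 8.21, 15.3, 15, 20.3 and 14.6 CPM and irradiated replicates 1 to 5 held 553.5, 154.8, 698.1, 540.4 and 435.7 CPM. The lowest irradiated sample, replicate 2, was still several times the highest control sample, replicate 4. The log2 fold change was 4.92 (SE 0.39, 95% interval 4.01 to 5.83, edgeR adjusted p = 7.57e-05), or 30.3-fold, and it ranked 5 among the rises of all 19006 genes.

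CXCL6, first described as a granulocyte chemotactic protein, was the scarcest member, at 0.514, 0.229, 0.419, 0.446 and 0.538 CPM in control replicates 1 to 5. These values rest on 32 to 64 counts a sample. The irradiated replicates held 2.03, 0.732, 2.25, 2.14 and 1.85 CPM. Replicate 2 was the lowest of both groups, and irradiated replicate 2 lay only a little above the control samples. The log2 fold change was 2.04 (SE 0.14, 95% interval 1.71 to 2.37, edgeR adjusted p = 4.83e-05), or 4.11-fold.

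The smaller response of replicate 2 ran through all 6 genes. Its irradiated sample was the lowest of the 5 for each member, and its change within the pair was the smallest of the 5 pairs for each. For CXCL8 the log2 change was 2.08 in pair 2 against 3.47 to 4.87 in the others. For CXCL5 it was 3.34 against 4.73 to 6.07, for CXCL3 1.77 against 2.86 to 3.27, and for CXCL2 2.56 against 3.28 to 3.98. The gap was narrower for CXCL6, at 1.59 against 1.75 to 2.37, and for CXCL1, at 1.20 against 1.48 to 2.36. CXCL8 and CXCL3 were also at their control maximum in control replicate 2. The values of a pair come from the same libraries, so the 6 genes do not count as separate results. How many of all genes tested had their smallest change in pair 2 was not counted. In irradiated replicate 2, BCL3 and TNFRSF1A also lay nearer the control samples than in other irradiated samples, whereas DCN lay farther. The part of depth in the smaller response of replicate 2 was not tested. Without replicate 2 the fitted log2 fold changes were 4.20 for CXCL8, 2.11 for CXCL6, 1.77 for CXCL1, 5.30 for CXCL5, 3.03 for CXCL3 and 3.55 for CXCL2, and without replicate 3, to which the control sample that stood apart belongs, they were 3.53, 1.95, 1.48, 4.75, 2.65 and 3.35, in the same order.

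**Figure D2:**
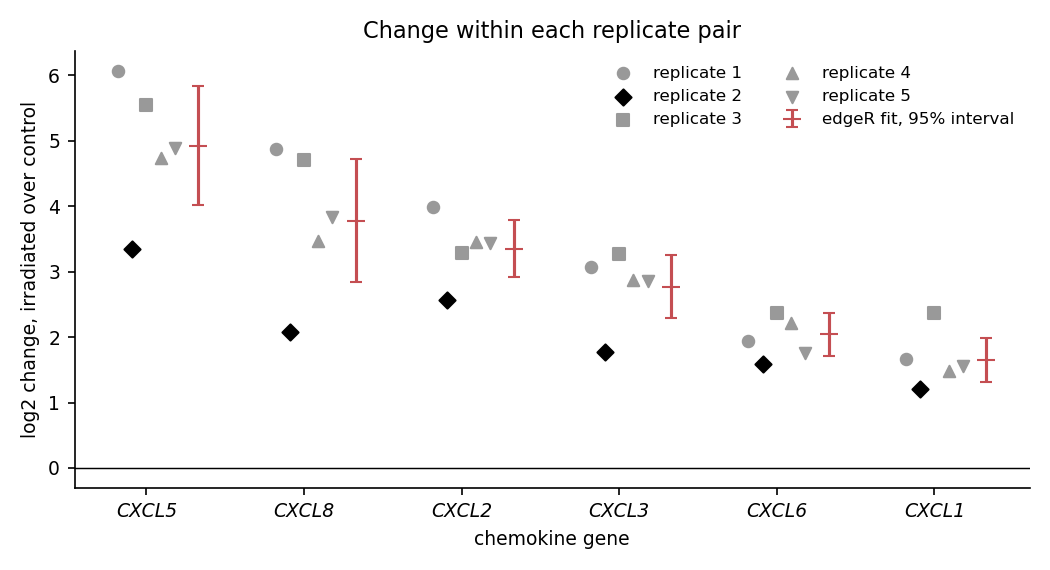
Log2 change of irradiated over control within each replicate pair, by gene, with replicate 2 as black diamonds, the other pairs as grey symbols, and the edgeR estimate with its 95% interval in red. All 30 within-pair changes are above 0, and the black diamond is the lowest symbol for every gene, from 1.20 for CXCL1 to 3.34 for CXCL5.

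How alike the genes were among samples beyond the effect of treatment was described by correlating, over the 10 samples, how far each gene's log2 CPM lay from its group mean, which share their libraries and so any effect of depth. CXCL8 and CXCL3 were the closest, with Pearson's r of 0.94, followed by CXCL8 and CXCL5 at 0.84 and CXCL5 and CXCL3 at 0.82. CXCL1 and CXCL2, the pair with the most similar promoter windows, had an r of 0.09. The other pairs with windows about as alike had an r of 0.74 for CXCL1 and CXCL3, 0.63 for CXCL5 and CXCL6 and 0.53 for CXCL2 and CXCL3.

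Comparing genes with each other needs a level per length, so CPM was divided by the kilobases of annotated exon. In control cells CXCL1 led at 38.4 ± 8.92 CPM per kb (SD, n = 5), followed by CXCL5 at 6.03 ± 1.77, CXCL8 at 2.91 ± 1.36, CXCL3 at 1.14 ± 0.229, CXCL2 at 0.619 ± 0.185 and CXCL6 at 0.21 ± 0.0597 CPM per kb. Among neighbours in this order the sample ranges of CXCL5 (3.37 to 8.33) and CXCL8 (1.48 to 4.42) overlapped and the others did not. In irradiated cells CXCL5 led at 195.6 ± 83.2 CPM per kb and CXCL1 was next at 120.4 ± 24.2. These ranges overlapped as well, because CXCL5 was at 63.6 and CXCL1 at 78.9 CPM per kb in irradiated replicate 2. CXCL8 stood at 39 ± 12.4, CXCL3 at 7.87 ± 1.7, CXCL2 at 6.34 ± 1.59 and CXCL6 at 0.883 ± 0.302 CPM per kb after irradiation. The ranges of CXCL3 (4.98 to 9.33) and CXCL2 (4.33 to 8.43) overlapped in irradiated cells. Division by the length of the MANE Select transcript instead left the order the same in both groups but raised the control levels of CXCL3 to 2.35 and of CXCL8 to 4.59 CPM per kb, and the control ranges of CXCL8 (2.33 to 6.97) and CXCL3 (1.87 to 3.01) then overlapped. In irradiated cells CXCL8 was then at 61.4 and CXCL3 at 16.2 CPM per kb.

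The summed level of the 6 genes was 45.3, 47.3, 36.4, 65.1 and 52.5 CPM per kb in control replicates 1 to 5. It was 409.9, 170.9, 489.3, 426.8 and 353.5 CPM per kb in irradiated replicates 1 to 5. The rise within pairs was 9.05-fold, 3.61-fold, 13.5-fold, 6.56-fold and 6.74-fold, so that pair 2 was the smallest and pair 3, whose control sample was the lowest, the largest.

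The makeup of this output was different in the 2 groups. CXCL1 made up 77.7% ± 5.59 of it in control cells and 34.4% ± 7.17 in irradiated cells (SD, n = 5), a difference of -43.3 percentage points. CXCL5 went from 12.4% ± 3.43 to 50.8% ± 8.19, a difference of 38.4 points, and was the largest share in every irradiated sample except replicate 2, where CXCL1 held 46.2% and CXCL5 37.2%. CXCL8 went from 5.83% ± 2.29 to 10.6% ± 0.454, a difference of 4.75 points. For each of these 3 genes the groups did not overlap, and the exact two-sided permutation test of 5 against 5 samples gave p = 0.00794, the smallest it can give. CXCL6 had a smaller share after irradiation, by -0.203 points (exact permutation p = 0.0317), although its level rose. That call was lost without replicate 1, 3, 4 or 5 (exact permutation p from 0.0857 to 0.114), and without division by length the difference was -0.333 points (exact permutation p = 0.00794). The exact test did not separate the groups for CXCL3 (2.35% and 2.24%, p = 0.683) or CXCL2 (1.33% and 1.8%, p = 0.206). A share does not depend on the scaling between samples, but it does on the length used. Without division by length the difference was 3.92 points for CXCL8, with an exact permutation p of 0.0556, and -0.842 points for CXCL3, with an exact permutation p of 0.0476. Whole pairs can be flipped in sign in too few ways to pass the threshold, and the paired test gave its smallest p of 0.0625 for CXCL1, CXCL5, CXCL6 and CXCL8.

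**Figure D3:**
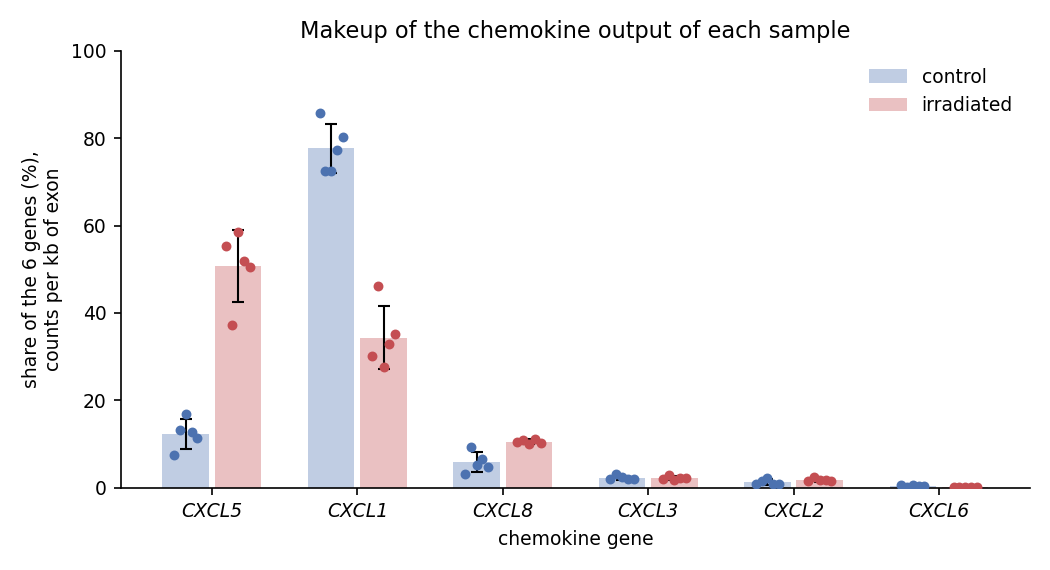
Share of each gene in the summed output of the 6 chemokine genes, in percent of counts per kb of exon, with bars at the mean of 5 samples, whiskers of 1 SD and a point per sample, replicates 1 to 5 from left to right. CXCL1 falls from a mean of 77.7% in control samples to 34.4% in irradiated samples and CXCL5 rises from 12.4% to 50.8%.

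Whether 2 members changed by different amounts was tested on the log2 ratio of their counts within each sample, for all 15 pairs of genes, by exact two-sided permutation of 5 against 5 samples. These p-values were not adjusted over the pairs. CXCL5 gained on each of the other 5 members, by 1.12 on the log2 scale over CXCL8, 1.55 over CXCL2, 2.14 over CXCL3, 2.90 over CXCL6 and 3.26 over CXCL1, each with an exact permutation p of 0.00794. CXCL8 gained 1.02 over CXCL3, 1.78 over CXCL6 and 2.14 over CXCL1, again with an exact permutation p of 0.00794. This test passed the threshold neither for CXCL8 and CXCL2 (0.43, pairs from -0.50 to 1.42, exact permutation p = 0.222) nor for CXCL3 and CXCL6 (0.76, pairs from 0.10 to 1.11, exact permutation p = 0.0794) or CXCL6 and CXCL1 (0.36, pairs from 0.05 to 0.78, exact permutation p = 0.206). For the last pair of ratios all 5 within-pair changes were above 0, and the exact paired sign-flip test gave its smallest p of 0.0625, as it did for the ratios that passed the unpaired test, while it gave 0.375 for CXCL8 and CXCL2.

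Genes alike in sequence did not all change alike. CXCL2 gained 1.71 on the log2 scale over CXCL1, and CXCL3 gained 1.12 over CXCL1, both with an exact permutation p of 0.00794. Between CXCL2 and CXCL3 the gain was 0.59 (exact permutation p = 0.0397), and it was near 0 in pair 3, at 0.02. Leaving out replicate 1, 2, 4 or 5 left the gain at 0.50 to 0.59 but raised the exact permutation p to 0.114, and without replicate 3 the gain was 0.73 with an exact permutation p of 0.0286, the smallest that 4 against 4 samples can give. CXCL2 gained 1.35 over CXCL6 (exact permutation p = 0.0159), a call lost without replicate 1, 3 or 4 (exact permutation p = 0.0571). CXCL5 and CXCL6, the other pair alike in sequence, differed in change by 2.90 as given above.

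The ratio of CXCL1 to CXCL3 counts was nearly the same in all irradiated samples. It was 9.45, 9.73, 9.4, 9.21 and 9.31 in irradiated replicates 1 to 5, with an SD of 0.03 on the log2 scale. In control replicates 1 to 5 it was 25.1, 14.5, 17.8, 24.3 and 23.1, with an SD of 0.34. This pair of genes had the smallest SD of the 15 in irradiated samples, where the others had 0.14 to 0.54. It is given as the extreme of those compared. Irradiated replicate 2, which was low for each gene by itself, was therefore not low in this ratio. The ratio of CXCL5 to CXCL1 counts was 3.28, 1.44, 3.79, 2.83 and 2.58 in irradiated replicates 1 to 5 and 0.155, 0.326, 0.419, 0.296 and 0.255 in control replicates 1 to 5, so that replicate 2 was again the lowest of the irradiated samples there.

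Genes of the pathways known to act on this cluster were taken as lists and described by their counts beside those of all genes tested, of which 23.9% were called higher and 22.7% lower. These counts are from the same edgeR fit, with Benjamini-Hochberg adjustment. The lists were chosen with earlier results of these data known, so the comparison with all genes is a description only. Of 16 genes for inducing cytokines, their receptors and their receptor antagonists, 11 were tested, 7 rose and 2 fell. LTB, a membrane lymphotoxin subunit that signals through LTBR, rose by 4.34 on the log2 scale, IL1A, an alarmin form of interleukin-1, by 3.90 and TNF by 3.71, each with groups that did not overlap. TLR4 and TLR2, receptors for microbial products and damage signals, rose by 1.59 and 1.24. LTBR and IL17RA, a receptor of interleukin-17, were called higher by 0.14 and 0.11, calls that were lost in 7 and 11 of 13 alternative fits, with adjusted p-values of up to 0.262 and 0.495. The genes that fell were TNFRSF1A, the main TNF receptor, with a log2 fold change of -0.39, and IL1RAP, the interleukin-1 co-receptor, with -0.47. IL1B, with 77 counts over all 10 samples, and IL1RN, the interleukin-1 receptor antagonist, with 50, lay under the limit of 200 counts. In the alternative edgeR fit with a limit of 1 count both were called higher, with adjusted p-values of 0.017 and 0.000346, the groups overlapping for IL1B and not for IL1RN.

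Of 14 genes that carry the signal from receptors to NF-κB, 5 rose and 1 fell, beside 23.9% higher and 22.7% lower over all genes tested. The median log2 fold change of the 14 was 0.10. IRAK2, a kinase-like adaptor of interleukin-1 and Toll-like receptors, stood out at 3.02, while IKBKB, the kinase that marks IκB for destruction, had 0.48 and MYD88, the shared adaptor, 0.37. TAB1, a partner of the kinase MAP3K7, fell by 0.27.

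Among the 5 NF-κB subunits 4 rose, namely RELB by 2.15, NFKB2 by 1.62, NFKB1 by 0.73 and RELA by 0.21 on the log2 scale. REL had a log2 fold change of 0.12 and an edgeR adjusted p of 0.447. Of 9 IκB proteins and feedback inhibitors, many of which are NF-κB targets themselves, 7 rose and 1 fell. TNFAIP3, the deubiquitinase A20 that damps the pathway, rose by 3.67, NFKBIA by 1.57, NFKBIE by 1.12 and TNIP1 by 1.06. BCL3, an atypical IκB that acts in the nucleus, fell by 0.81.

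The C/EBP and AP-1 factors, which act beside NF-κB at the CXCL8 promoter, were higher in 3 of 12 cases and lower in 2, which is near the background. CEBPB fell by 0.80 and CEBPD by 0.90, whereas FOSL1 rose by 1.44 and FOSL2 by 0.25. ATF3 was called higher (0.93, edgeR adjusted p = 0.043) but lost the call in 7 of 13 alternative fits, where the adjusted p reached 0.163.

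**Figure D4:**
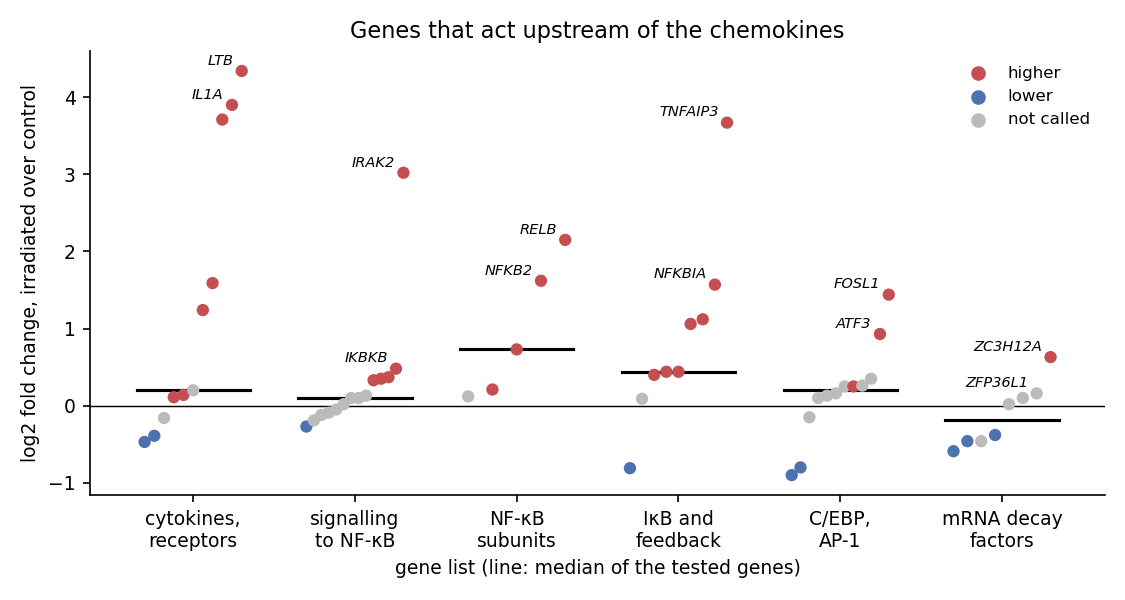
Log2 fold change of irradiated over control for the tested genes of 6 pathway lists, with 1 point per gene coloured by its edgeR call at an adjusted p of 0.05, and a line at the median of each list. The medians run from -0.18 for the mRNA decay factors to 0.73 for the NF-κB subunits, and LTB is the highest point at 4.34.

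The part of each transcript after its stop codon was searched for the AU-rich pentamer ATTTA, to which decay factors bind. The 6 members held 5.36 to 14 per kb, against a median of 1.59 over 18463 coding transcripts, with CXCL2 the densest at 10 copies in 716 bases. The longer motif TTATTTATT occurred 5 times in CXCL2, 3 times in CXCL1 and once each in CXCL3 and CXCL8, and not in CXCL5 or CXCL6, the pair that held the fewest pentamers per kb. It is found in 8.75% of all coding transcripts. Of 8 decay and stability factors for such messages, 3 fell and 1 rose, beside 22.7% lower and 23.9% higher over all genes tested. ZFP36L2, which recruits the deadenylation machinery, fell by 0.59 on the log2 scale, HNRNPD (AUF1) by 0.46 and KHSRP by 0.38. ZC3H12A, the endonuclease regnase-1, rose by 0.63.

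The receptors of these chemokines were all but absent from the counts, with 3 counts for CXCR1, 6 for CXCR2 and 1 for ACKR1, the scavenging receptor of red cells and venules, summed over all 10 samples. The other CXC chemokine genes of chromosome 4 had few counts in either group. PPBP and PF4, platelet chemokines whose genes lie among the members, had 21 and 0 counts, PF4V1 had 8, and CXCL9, CXCL10, CXCL11 and CXCL13 had 0, 14, 28 and 7 counts. None of these 7 reached the limit of 200 counts. In the alternative fit with a limit of 1 count, which held 5 of them, CXCL11 was called higher (edgeR adjusted p = 0.0024), at no more than 0.0871 CPM in any irradiated sample. CXCL10 had an edgeR adjusted p of 0.0548 there, and both were higher in 5 of 5 pairs with groups that did not overlap.

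Of 13 genes for other signals that act on neutrophils 8 were tested, 4 rose, 1 fell and 3 (ALOX5, LTA4H and LCN2) were not called, beside 23.9% higher and 22.7% lower over all genes tested. Without replicate 3, ALOX5 (0.51, edgeR adjusted p = 0.0321) and LCN2 (0.92, edgeR adjusted p = 0.0119) were called higher, and LCN2 also with a limit of 1 count (0.62, edgeR adjusted p = 0.0281). SELP, the adhesion molecule P-selectin, rose by 4.79 on the log2 scale, CSF2, a growth factor for granulocytes and macrophages, by 4.47, C3, the central complement component, by 1.61 and ICAM1, a ligand of neutrophil integrins, by 1.23. C5, the source of the attractant C5a, fell by 1.06. CSF3, the main growth factor of neutrophils, had 8 counts in all and SELE, another selectin, 2 counts, both under the limit.

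The rise within the locus was not shared by every gene. Within 500 kb on either side of the cluster, and between its members, 33 other genes are annotated and 8 of them were tested, of which 3 rose and 1 fell, beside 23.9% and 22.7% over all genes tested. With a limit of 1 count AFP, the alpha-fetoprotein gene, was called higher too (edgeR adjusted p = 0.00357), from 143 counts in all. RASSF6, the nearest tested gene before CXCL8, had a log2 fold change of 0.04 with an edgeR adjusted p of 0.746, and its sign turned in some alternative fits. MTHFD2L, a folate enzyme gene beyond CXCL2, had -0.32 (edgeR adjusted p = 0.0318), a call lost when replicate 2, 4 or 5 was left out. EREG and AREG, epidermal growth factor receptor ligands farther on, rose by 3.19 and 0.80, EREG from 218 counts in all, close to the limit. ENSG00000287037 rose by 1.29 from 322 counts, and it shares exon sequence with CXCL5 on the opposite strand. Counts were treated as unstranded, and the part of CXCL5 reads in the rise of ENSG00000287037 was not tested.

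**Figure D5:**
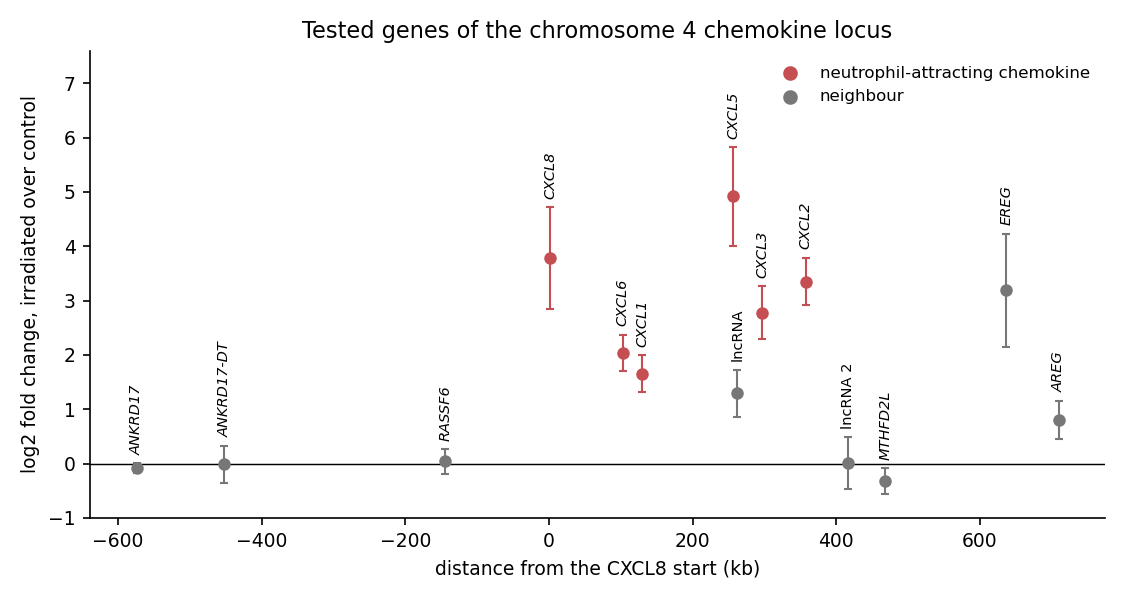
Log2 fold change of irradiated over control with its 95% interval for each tested gene of the chromosome 4 locus, plotted by the distance of its middle from the CXCL8 start in kb, with members in red and neighbours in grey. The 6 members lie between 1.65 and 4.92, RASSF6 and the gene labelled lncRNA 2 lie near 0, and EREG rises again at 3.19, where lncRNA marks ENSG00000287037 and lncRNA 2 marks ENSG00000269559.

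Markers were read to see whether other cells could have contributed. Their counts stand beside 23.9% called higher and 22.7% called lower over all genes tested. Tubule epithelial markers were abundant, KRT8 at means of 1010 and 1088 CPM and PAX8 at 533 and 594.4 CPM in control and irradiated cells. Of 8 such markers 1 rose, the kidney cadherin CDH6 at 6.51-fold, and 3 fell, namely CDH16, another kidney cadherin, by 0.78, the transcription factor PAX2 by 0.27 and the epithelial cadherin CDH1 by 0.18 on the log2 scale. The call of CDH1 was lost in 5 of 13 alternative fits and that of PAX2 in 1, without the replicate block (edgeR adjusted p = 0.0799). PAX8, not called in the main fit, was called higher without replicate 3 (0.21, edgeR adjusted p = 0.0334). Of 7 proximal tubule markers 3 passed the count limit, ANPEP, CUBN and GGT1, while LRP2, HNF4A, SLC34A1 and SLC22A6 had 17, 12, 86 and 1 counts in all. ANPEP, a brush border peptidase, stood at means of 247.8 and 295.8 CPM, GGT1 at 10 and 12.5 CPM and CUBN at 4.37 and 4.76 CPM in control and irradiated cells, so the list was divided between genes that were present and genes that were nearly absent in both groups. None of ANPEP, CUBN and GGT1 was called in the main fit. GGT1 was called higher with DESeq2 (0.33, DESeq2 adjusted p = 0.0267) and with a limit of 1 count (0.29, edgeR adjusted p = 0.0436). Without replicate 3 GGT1 was called higher as well (0.19, edgeR adjusted p = 0.0358). Of 12 leukocyte markers 3 were tested, and ITGAM and CD14 rose, by 4.71 and 1.09. The summed leukocyte level went from 0.689 to 0.954 CPM in control samples to 2.09 to 2.75 CPM in irradiated samples, and ITGAM, the most abundant of them after irradiation, reached at most 1.71 CPM. In control samples PTPRC and CD14 were more abundant, at means of 0.295 and 0.268 CPM against 0.0436 CPM for ITGAM. S100A9, with 143 counts in all, was called higher with a limit of 1 count (edgeR adjusted p = 0.00155). The neutrophil genes CSF3R, FCGR3B, MPO and ELANE had 15, 3, 6 and 2 counts over all 10 samples, and PTPRC, the pan-leukocyte marker, had a log2 fold change of 0.27 with an edgeR adjusted p of 0.283. Of 4 endothelial markers 3 were tested. CDH5 rose by 2.48 and PECAM1 by 0.72, whereas VWF had a log2 fold change of -0.02 with an edgeR adjusted p of 0.965. The summed endothelial level went from 1.29 to 2.4 CPM in control samples to 4.15 to 6.07 CPM in irradiated samples, with KDR at 2 counts. Of 5 fibroblast markers COL1A1 rose by 0.78 and DCN by 2.36, with COL1A2, PDGFRB and LUM at 23, 49 and 2 counts, and the summed level, mostly COL1A1, went from 15.8 to 23.4 CPM to 28.4 to 40 CPM. The part of such cells in the chemokine values was not tested.

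Genes outside the cluster with a like pattern were found by a fixed rule among 12837 genes with a mean over 1 log2 CPM, and 5 were taken for each measure. By how well their distances from the group means correlated with the mean distance of the 6 members over the 10 samples, they were SPRYD7 (r = 0.979), PTER (0.973), SRPK1 (0.968), DLG1 (0.965) and SMURF2 (0.962). This measure leaves out the difference between the groups, and these genes changed less than the members. SPRYD7 was not called (log2 fold change 0.17, edgeR adjusted p = 0.0774; 0.24 and called without replicate 2), and the other 4 rose by 0.61 to 1.44 on the log2 scale. By the root mean square distance between changes within the 5 pairs, they were LAMA3 (0.08), a laminin chain, OXTR (0.17), the oxytocin receptor, NPFFR2 (0.20), TLL1 (0.21) and NTM (0.21). The smallest of these distances means that LAMA3 followed the mean change of the members within 0.08 on the log2 scale on average, including the smaller change of pair 2.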

How the data were processed

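Bulk poly-A RNA-seq libraries of 5 control and 5 irradiated samples were analysed. The authors used Trim-Galore for adapter removal and STAR for alignment to GRCh38 and for counting on GENCODE genes, and the values they deposited are raw counts per gene. The labels and the paper name different library kits, and the annotation release and strand setting are not given in the sources used here. Of 418 long non-coding RNA genes wholly under exons of the other strand 98.3% had 0 counts, against 28.8% of 12053 without overlap, so counts were treated as unstranded. Symbols matched 61369 of 61587 identifiers. Coordinates and exon lengths came from GENCODE release 44 on GRCh38 and promoters from RefSeq (GRCh38.p14). The members and lists were chosen with earlier results of these data known.

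Genes whose counts summed to 200 or more were tested in R 4.3.3 with edgeR 4.0.16 (TMM, glmQLFit, glmQLFTest, replicate number as a block, Benjamini-Hochberg adjustment, threshold 0.05). Fold changes carry the standard error from the quasi-likelihood F statistic. Same-numbered samples were taken as pairs because the study's methods controlled for replicate number. Their deviations from the group means correlated at 0.22 to 0.51 for the 5 numbers, against -0.35 to 0.32 for others. Pair 2, at 0.22, thus lay within the range of the others. Within a group, no 2 libraries had counts within sampling noise of each other (chi-square per gene 7.68 to 187). Log2 ratios of counts used a pseudocount of 0.5. On simulated data with 200 of 19006 genes changed, the test recovered 100% of 112 4-fold and 90.9% of 88 2-fold changes, with 6 false calls. The simulated counts held no replicate effect, and in the real data 46.6% of genes were called. These rates therefore need not hold for the real data. Alternatives were DESeq2 1.42.0, limma-voom (limma 3.58.1), library size only, RLE and upper-quartile normalisation, filterByExpr, a limit of 1 count, no block, each replicate left out, a pseudocount of 10, counts without length and a paired sign-flip test. Division by the MANE Select length was added after the data had been seen. Genes named are the members, tested genes of the lists and the 5 most alike by each of 2 measures. CXC chemokines and receptors under the limit, and other markers near 0, are given by their counts. Figures were drawn with matplotlib 3.10.9.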

Additional observations from a re-analysis of the deposited data

Results flagged for a closer look

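In 174 groups of 5 values that were examined, 15 held a sample farther from its neighbours than Dixon's critical value of 0.71 allows, where chance gives about 1 in 20, or 8.7. Irradiated replicate 2 or its pair accounts for 9 of the 15, but OXTR and DLG1, which are among the 9, were named because they follow the chemokines over these samples, so their low value there was fixed by that choice. Among the chemokines, CXCL6 was at 0.732 CPM in irradiated replicate 2 against 1.85 to 2.25 CPM in the other irradiated samples, and CXCL1 was at 107.5 CPM against 168.6 to 190.8 CPM. The CXCL3 log2 change was 1.77 in pair 2 against 2.86 to 3.27 in the other pairs. The share of CXCL2 in the output of the 6 genes was 2.53% in irradiated replicate 2 against 1.51% to 1.72%. In the same sample OXTR was low at 3.79 CPM (others 6.87 to 8.03) and DLG1 at 163.4 CPM (201.9 to 210.5), while TNFRSF1A was high at 138 CPM (114 to 117.8), BCL3 at 62.5 CPM (33.1 to 40.7) and DCN at 4.45 CPM (0.454 to 1.61). In irradiated replicate 3, PAX8 was high at 625.4 CPM (582.7 to 591.8) and ANPEP at 462.9 CPM (214.1 to 271.2). In control replicate 3, TLR2 was high at 6.16 CPM (4.24 to 4.47), TNIP1 at 194.2 CPM (150.7 to 156.8) and ATF3 at 3.81 CPM (0.854 to 1.25). In control replicate 4, CSF2 was high at 0.325 CPM (0.0489 to 0.114).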

How the results depend on the processing

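The 6 members kept their direction and their call in all 13 alternative fits, with log2 fold changes of 3.52 to 4.20 for CXCL8, 1.95 to 2.12 for CXCL6, 1.48 to 1.77 for CXCL1, 4.64 to 5.30 for CXCL5, 2.65 to 3.03 for CXCL3 and 3.20 to 3.55 for CXCL2. Without the replicate block they were 3.73, 2.09, 1.65, 5.02, 2.78 and 3.35 in that order. The number of genes changed was 8857, ranged from 6529 to 9503, and was 7006 without the replicate block. The paired sign-flip test within the replicate block cannot pass the threshold with 5 pairs and gave 0.0625 for the share differences of CXCL8 (4.75), CXCL6 (-0.203), CXCL1 (-43.3) and CXCL5 (38.4). It gave the same p for the log2 ratio changes of CXCL5 over CXCL8 (1.12), CXCL2 (1.55), CXCL3 (2.14), CXCL6 (2.90) and CXCL1 (3.26), of CXCL8 over CXCL3 (1.02), CXCL6 (1.78) and CXCL1 (2.14), of CXCL2 over CXCL3 (0.59), CXCL6 (1.35) and CXCL1 (1.71), of CXCL3 over CXCL1 (1.12) and CXCL6 (0.76), and of CXCL6 over CXCL1 (0.36), and 0.375 for CXCL8 over CXCL2 (0.43). Counts without division by length gave 3.92 for the CXCL8 share (exact permutation p = 0.0556) and -0.842 for CXCL3 (exact permutation p = 0.0476). With a pseudocount of 10 the ratio of CXCL2 over CXCL3 changed by 0.50 (exact permutation p = 0.0556) and that of CXCL3 over CXCL6 by 0.89 (exact permutation p = 0.0397). Leaving out 1 replicate, the CXCL6 share difference ran from -0.247 to -0.169, that of CXCL3 from -0.201 to 0.0299 (above 0 without replicate 3), and the ratio changes from 0.50 to 0.73 for CXCL2 over CXCL3, 1.17 to 1.46 for CXCL2 over CXCL6 and 0.67 to 0.92 for CXCL3 over CXCL6, where the last value, without replicate 2, had an exact permutation p of 0.0286. Of results that did not pass the threshold, the CXCL2 share difference of 0.472 was 0.0739 without division by length and 0.338 to 0.747 with 1 replicate left out, the change of CXCL8 over CXCL2 (0.43) was 0.18 to 0.66 with 1 replicate left out, and that of CXCL6 over CXCL1 (0.36) was 0.19 with a pseudocount of 10. RASSF6 was at -0.03 with library size only and from -0.01 to 0.17 with 1 replicate left out, the last value, without replicate 3, past the threshold (edgeR adjusted p = 0.0183). VWF was at 0.01 with DESeq2 and from -0.23 to 0.16 with 1 replicate left out, and LTA4H at -0.01 with library size only. EREG fell under the count limit when a replicate was left out. The cause of these shifts was not tested. Depth limits CXCL6 and CXCL2 in control cells, at 32 to 64 and 45 to 141 counts a sample.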
